A study of Mus musculus with 6 samples.

Results

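The genes described here are 38 genes of the cell cycle and of DNA replication, of the 36870 gene names on the array. They were chosen by name and comprised 23 mitotic genes, which act in chromosome condensation, the spindle, the kinetochore, the mitotic kinases and mitotic exit, and 15 S-phase genes, which act in the licensing and copying of DNA and in the supply of nucleotides. They were read by 69 probes, 41 for mitotic and 28 for S-phase genes. Transcriptome analysis (TA) used kidneys from 6 female mice at 6 months of age. The 3 LPR mice (MRL/MpJ-Fas lpr/lpr) are homozygous for the lpr allele of Fas, a death receptor of lymphocytes, and develop lupus nephritis. The 3 MRL mice (MRL/MpJ) share the strain background without that allele and served as controls. Each mouse gave 1 array with no pooling, and the labels name no drug treatment for either group. The question was whether the levels of these genes differed between LPR and MRL kidneys, and whether mitotic and S-phase genes did so alike.

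A cell that divides first licenses its origins of replication with the MCM helicase, Cdc6 and Cdt1, copies its DNA under the drive of cyclin E and then enters mitosis with cyclin B and Cdk1. Genes for replication are switched on by E2F factors late in G1, whereas mitotic genes follow later in the cycle through factors that bind the promoter elements called CCAAT box and CHR. In the adult kidney few cells divide, and in lupus nephritis dividing cells can be resident renal cells or lymphocytes, plasma cell precursors and macrophages that have entered the tissue. An array of kidney RNA sums all of them, so that more dividing cells and more transcript per cell cannot be told apart.

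A level is given as log2 of the array intensity relative to the 75th percentile of that array, so that 0 is the level of that percentile and lower genes are negative. A log2 change is the LPR minus the MRL mean. The brightest probe of a gene, averaged over the 6 arrays, stands for it, and levels are not compared between genes. A probe entered the test in limma if at least 3 arrays flagged it well above background, and a gene is called higher or lower at an adjusted p under 0.05 over all 39924 tested probes. Between 69.6% and 73.5% of the spots on an array were well above background and no spot was saturated. Correlations were 0.989 to 0.991 between mice of 1 group and 0.976 to 0.980 between groups, over all probes. The median change of all 25805 genes tested was -0.12, so that a change of 0 lies above the middle of the array. Fas was read by 2 probes. The brighter probe had a change of -0.47 (standard error 0.24, adjusted p = 0.234 in limma). The other, detected in 3 of 3 LPR and 0 of 3 MRL mice, rose at least 1.47-fold in the LPR group. The test was of the change as measured, 1.89 (adjusted p = 0.0338 in limma). This probe entered the test through LPR mice alone, so that the filter favoured a rise.

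Of the 38 genes, 36 were tested, and none of these 36 entered the test through LPR mice alone. Kif11, the motor that pushes spindle poles apart, was well above background in 2 LPR mice and in 0 MRL mice. Ccne2, a cyclin E, was above background in no mouse. In LPR mice 3 genes were higher, namely Ccne1, Bub1b and Mcm3, against 7.12% of all genes tested, and 1 gene, Kif23, was lower, against 5.47% of all genes. The other 32 genes did not pass. Ccne1 and Bub1b were also at least 2-fold higher, which held for 2 of the 36 genes and for 4.96% of all genes. By class, 1 of 22 mitotic genes was higher and 1 was lower, and 2 of 14 S-phase genes were higher and 0 were lower. At the level of probes, 2 of 35 tested mitotic probes were higher and 1 lower, and 6 of 25 tested S-phase probes were higher and 0 lower, beside 6.53% higher and 6.17% lower of all probes. The 6 S-phase probes were the 4 of Mcm3 and 1 each of Ccne1 and Cdc6, of which the Cdc6 probe entered the test through LPR mice alone. The 3 LPR mice exceeded every MRL mouse for 6 genes, 1 mitotic and 5 S-phase, against 11.7% of all genes, and were below every MRL mouse for 2 mitotic genes, against 25.6%.

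The median change was 0.30 over the mitotic genes (from -0.79 to 1.02) and 0.22 over the S-phase genes (from -0.12 to 1.44). A positive change was found for 18 of the 22 mitotic and 11 of the 14 S-phase genes, and for 32.5% of all genes tested. The errors differed more than the medians. The median standard error of a change was 0.36 for mitotic genes, 0.17 for S-phase genes and 0.14 for all genes, so that a mitotic gene had to change further to pass. The difference between the medians of the 2 classes was not tested.

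**Figure D1:**
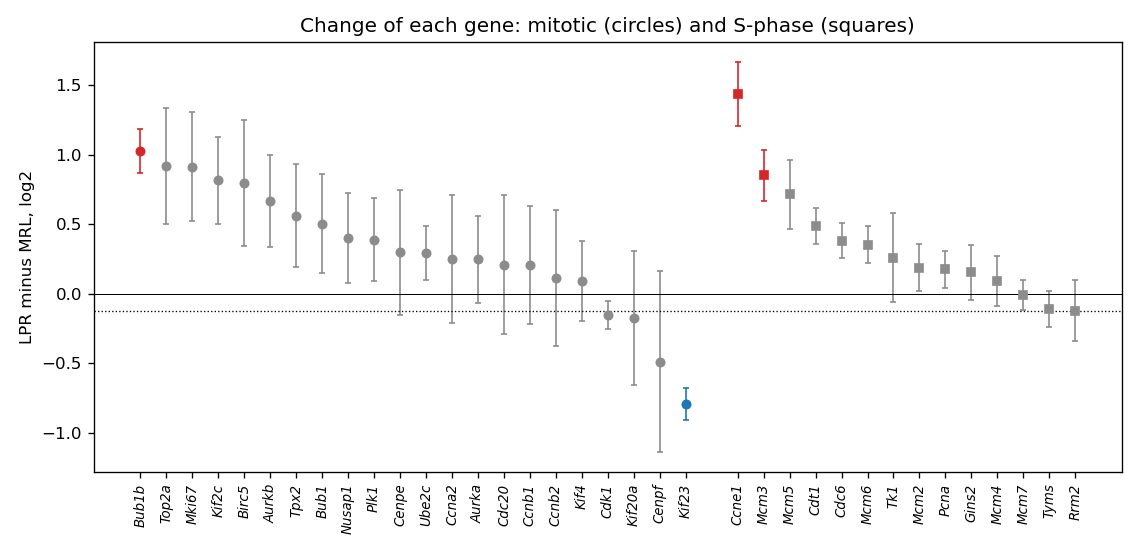
Log2 change (LPR minus MRL, y axis) of the 36 tested genes, mitotic as circles and S-phase as squares, each in order of size; bars are the standard error from limma (3 mice per group). Red is higher and blue is lower at an adjusted p under 0.05, grey did not pass, and the dotted line is the median of all genes at -0.12. The bars of most mitotic genes are longer than those of the S-phase genes.

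The S-phase genes opened with cyclin E1. Ccne1, which activates Cdk2 at the start of S phase, had levels of -3.50, -2.67 and -2.72 in the MRL mice and -1.44, -1.47 and -1.67 in the LPR mice. The groups did not overlap, and MRL 1 was the lowest mouse. The change was 1.44 (standard error 0.23, adjusted p = 0.00905 in limma), a 2.71-fold rise and the largest among the 36 genes. The probe lies at chr7:38882937-38882960 of mm9.

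The 6 subunits of the MCM helicase, which unwinds DNA at the fork, had changes from -0.01 to 0.85, and 1 of the 6 passed. Differences between subunits were not tested. Mcm3 had levels of -0.73, -0.09 and -0.47 in MRL mice and 0.56, 0.47 and 0.24 in LPR mice. Every LPR mouse was above every MRL mouse, with a change of 0.85 (standard error 0.18, adjusted p = 0.0278 in limma), or 1.80-fold. The 4 probes of Mcm3, which lie at separate or partly overlapping positions of chromosome 1, gave changes of 0.85 to 0.93, and each passed. Mcm3 kept its direction under all 22 alternatives but lost its call under 11 of them, among them without MRL 1 (0.70, adjusted p = 0.0724) and without any other single mouse except MRL 2.

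Mcm5 had levels of -1.81, -0.88 and -1.26 in MRL mice and -0.46, -0.46 and -0.89 in LPR mice. LPR 3 lay just within the MRL range. Its change of 0.72 (standard error 0.25) did not pass (adjusted p = 0.109 in limma), and without MRL 1 it was 0.47. Mcm6 had a change of 0.35, with no overlap of the groups (adjusted p = 0.133). The changes of Mcm2, Mcm4 and Mcm7 were 0.19, 0.09 and -0.01. Mcm7 was nearly flat, at 1.10, 1.17 and 1.22 in MRL mice and 1.16, 1.27 and 1.03 in LPR mice (standard error 0.11, adjusted p = 0.963), and the groups overlapped throughout. The median of the 6 subunits was 0.27.

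Cdt1 and Cdc6 load the MCM ring onto origins. Cdt1 had levels of -0.19, 0.12 and 0.07 in MRL mice and 0.64, 0.42 and 0.39 in LPR mice. The groups did not overlap, but the change of 0.49 (standard error 0.13) missed the threshold (adjusted p = 0.0562 in limma) and passed under 5 of the 22 alternatives. The brighter probe of Cdc6 had levels of -3.26, -3.28 and -3.33 in MRL mice and -3.07, -2.70 and -2.97 in LPR mice. The groups did not overlap there either, and the change of 0.38 (standard error 0.12) did not pass (adjusted p = 0.0934). The dimmer probe of Cdc6 was above background in 0 MRL and 3 LPR mice and was at least 1.53-fold higher. This bound takes each MRL mouse at no less than the dimmest detected signal of its array, and it was not tested. The test was of the change as measured, 1.19 (adjusted p = 0.0347 in limma). The calls of the 2 Cdc6 probes therefore differed, but the dimmer probe entered the test through the LPR mice alone. The filter thus favoured a rise, and this call is not taken as support.

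The remaining S-phase genes showed small changes. Pcna, the sliding clamp of DNA polymerases, had a change of 0.18, and Gins2, a subunit of the replicative helicase, 0.15. Tk1, which salvages thymidine, had a change of 0.26 with MRL 1 at -0.50 below the other 5 mice, which ranged from 0.23 to 0.79. Rrm2, a subunit of ribonucleotide reductase, had levels of 0.19, 0.80 and 0.60 in MRL mice and 0.80, 0.18 and 0.25 in LPR mice. Its groups spanned nearly the same range (change -0.12, standard error 0.22, adjusted p = 0.740 in limma). Tyms, which makes thymidylate, had 1.27, 1.46 and 1.60 in MRL mice and 1.27, 1.49 and 1.25 in LPR mice, again with overlap (change -0.11, standard error 0.13, adjusted p = 0.610).

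Among the mitotic genes only Bub1b was higher in LPR mice. Bub1b encodes BubR1, a spindle checkpoint kinase-like protein that restrains the anaphase-promoting complex. Its levels were -5.12, -4.61 and -4.66 in MRL mice and -3.79, -3.83 and -3.70 in LPR mice, with no overlap and little spread within LPR mice. The change was 1.02 (standard error 0.16, adjusted p = 0.00767 in limma), or 2.03-fold, from a dim probe at chr2:118466830-118466889 of mm9. Without MRL 1 it was 0.86 and still passed (adjusted p = 0.0104). After normexp background correction it fell to 0.29 and did not pass (adjusted p = 0.0647).

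Mki67 and Birc5, both used as markers of proliferation, had large changes and large spread, and neither passed. Mki67, which coats mitotic chromosomes, had levels of -1.62, -0.15 and -0.40 in MRL mice and 0.49, -0.22 and 0.30 in LPR mice. MRL 1 was far below the rest, and LPR 2 lay within the MRL range. The change of 0.91 (standard error 0.39) did not pass (adjusted p = 0.169 in limma), and without MRL 1 it was 0.47. Birc5, the survivin subunit of the chromosomal passenger complex, had -1.44, 0.34 and 0.09 in MRL mice and 0.80, 0.29 and 0.30 in LPR mice. MRL 2 exceeded 2 of the LPR mice (change 0.80, standard error 0.45, adjusted p = 0.277), and without MRL 1 the change was 0.25.

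Top2a, the topoisomerase that untangles chromosomes before anaphase, was read by 4 tested probes. Changes were 0.90 to 1.10 for the 3 that were above background in all mice. The faintest, above background in 0 MRL and 3 LPR mice, was at least 1.45-fold higher. Its change as measured, 1.61, did not pass (adjusted p = 0.0513 in limma). The brightest probe of Top2a had -3.22, -1.72 and -2.01 in MRL mice and -0.87, -1.84 and -1.47 in LPR mice. MRL 2 lay above LPR 2 there (change 0.92, standard error 0.42, adjusted p = 0.193 in limma). Without MRL 1 this change was 0.47. Of the 4 probes 1 passed. This probe, annotated to another transcript of the gene, had -5.24, -4.93 and -4.77 in MRL mice and -4.11, -4.07 and -4.06 in LPR mice, with no overlap (change 0.90, standard error 0.14, adjusted p = 0.00800). Sizes were alike for both probes, and the errors were not.

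Kif2c, a motor that trims kinetochore microtubules, was above background in 1 MRL and 3 LPR mice. Its levels were -6.76, -5.50 and -6.10 in MRL mice and -5.06, -5.58 and -5.27 in LPR mice, with LPR 2 below MRL 2. The change of 0.82 (standard error 0.31) did not pass (adjusted p = 0.135 in limma), and without MRL 1 it was 0.50.

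Kif23, a kinesin of the central spindle needed for cytokinesis, was the only gene of the 36 that was lower. Its brightest probe had -0.95, -0.81 and -0.99 in MRL mice and -1.83, -1.74 and -1.56 in LPR mice. The groups lay well apart, with a change of -0.79 (standard error 0.12, adjusted p = 0.00634 in limma), and all 3 MRL mice were alike. This probe (chr9:61770729-61770788 of mm9) is annotated to an Ensembl transcript, whereas both dimmer tested probes are annotated to the RefSeq transcript of Kif23. Those had changes of -0.22 and -0.34 with overlapping groups (adjusted p = 0.714 and 0.301), so that the call holds for 1 of 3 tested probes. With the probes averaged, the change was -0.45 and did not pass (adjusted p = 0.166).

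A like split occurred for Cdk1, the kinase that drives entry into mitosis. Its brighter probe, on an Ensembl transcript, gave -3.18, -3.16 and -3.31 in MRL mice and -3.32, -3.42 and -3.36 in LPR mice (change -0.15, standard error 0.10, adjusted p = 0.343 in limma). The probe on the RefSeq transcript gave -5.80, -3.83 and -3.97 in MRL mice and -3.26, -3.98 and -4.02 in LPR mice (change 0.78, standard error 0.53, adjusted p = 0.353). MRL 1 was lowest by a wide margin in the second and not in the first.

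At the low end, Cenpf, a kinetochore protein of late G2 and mitosis, had -3.64, -1.99 and -2.14 in MRL mice and -2.11, -4.35 and -2.77 in LPR mice. LPR 2 was the lowest mouse and the groups overlapped (change -0.49, standard error 0.65, adjusted p = 0.644 in limma). Kif20a, a kinesin of cytokinesis, had -3.68, -2.14 and -2.32 in MRL mice and -2.16, -3.43 and -3.07 in LPR mice, also with overlap (change -0.17, standard error 0.48, adjusted p = 0.833).

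None of the other mitotic genes passed. Among the mitotic kinases the changes were 0.67 for Aurkb, 0.25 for Aurka, 0.39 for Plk1 and 0.50 for Bub1. Tpx2 and Nusap1, which organise spindle microtubules, had 0.56 and 0.40, and the motors Cenpe and Kif4 had 0.30 and 0.09. The cyclins Ccna2, Ccnb1 and Ccnb2 had 0.25, 0.21 and 0.11. Cdc20, the activator of the anaphase-promoting complex, had 0.21, and Ube2c, the ubiquitin-conjugating enzyme of that complex, 0.29. For Ccnb2 the MRL levels were -2.11, -0.43 and -0.46, and the LPR levels were -0.33, -1.29 and -1.04, so that the control mice alone spanned more than the LPR mice. Without MRL 1 the change of Ccnb2 was -0.44, and those of Cdc20, Ccnb1 and Ccna2 were -0.37, -0.29 and -0.25. Aurkb, Bub1 and Tpx2 then had 0.30, 0.26 and 0.28, while Plk1, Nusap1, Cenpe, Ube2c and Aurka lay between -0.07 and 0.09. Kif20a and Cenpf had -0.66 and -1.01. A second probe of Ccna2, above background in all mice, had levels of -4.29, -2.42 and -2.48 in MRL mice and -1.76, -2.13 and -2.02 in LPR mice. Its groups did not overlap, unlike those of the brighter probe, and its change of 1.09 (standard error 0.48) did not pass (adjusted p = 0.180 in limma). A second probe of Aurkb had a change of 1.19 that did not pass (adjusted p = 0.164), and the 3 tested probes of Ccnb1 had changes of -0.24 to 0.21.

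**Figure D2:**
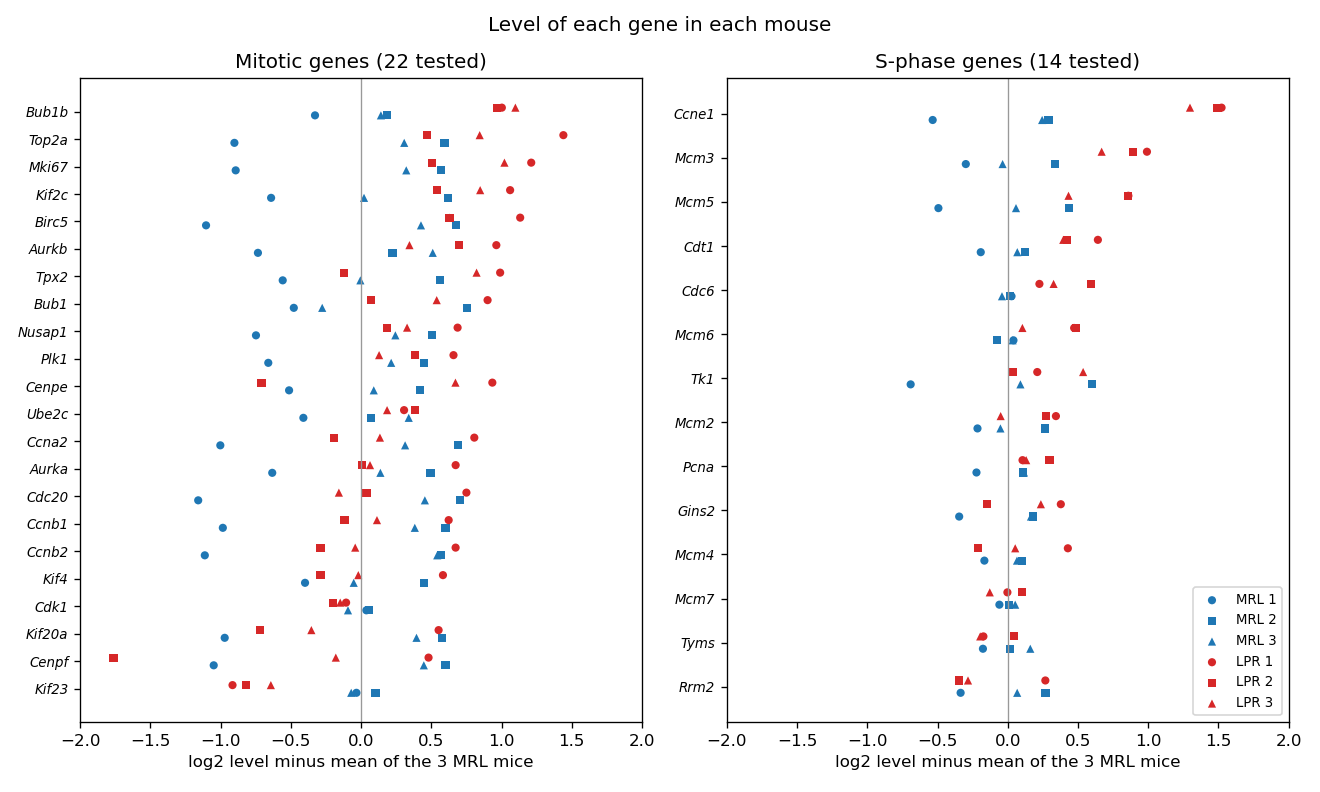
Log2 level of each tested gene in each mouse minus the mean of the 3 MRL mice (x axis), for 22 mitotic and 14 S-phase genes in order of their change (y axis). Blue symbols are MRL and red symbols LPR mice, with circles, squares and triangles for mouse 1, 2 and 3. The blue circle, MRL 1, is the lowest MRL mouse in 20 of 22 mitotic and 12 of 14 S-phase genes.

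The mitotic genes varied together among the mice. MRL 1 was the lowest MRL mouse in 20 of 22 mitotic and 12 of 14 S-phase genes, and in 42.7% of all genes. It lay below the mean of MRL 2 and 3 by a median log2 difference of -1.05 over the mitotic and -0.33 over the S-phase genes, and of -0.03 over all genes. LPR 1 was the highest LPR mouse in 19 of 22 mitotic and 8 of 14 S-phase genes, and in 29.0% of all genes. The MRL levels spanned more than 1 log2 unit for 16 of the 22 mitotic genes, for 1 of the 14 S-phase genes and for 5.30% of all genes. These counts were made after the values were seen and describe 6 mice.

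Relative to the MRL mean, the median mitotic level was -0.70, 0.57 and 0.28 in MRL mice and 0.72, 0.02 and 0.16 in LPR mice. The groups overlapped, because MRL 2 and 3 lay above LPR 2 and 3. The median S-phase level was -0.22, 0.15 and 0.07 in MRL mice and 0.36, 0.28 and 0.18 in LPR mice, with all LPR mice above all MRL mice. The mitotic minus the S-phase median was -0.48, 0.41 and 0.21 in MRL mice and 0.36, -0.26 and -0.02 in LPR mice. It thus took both signs within each group.

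**Figure D3:**
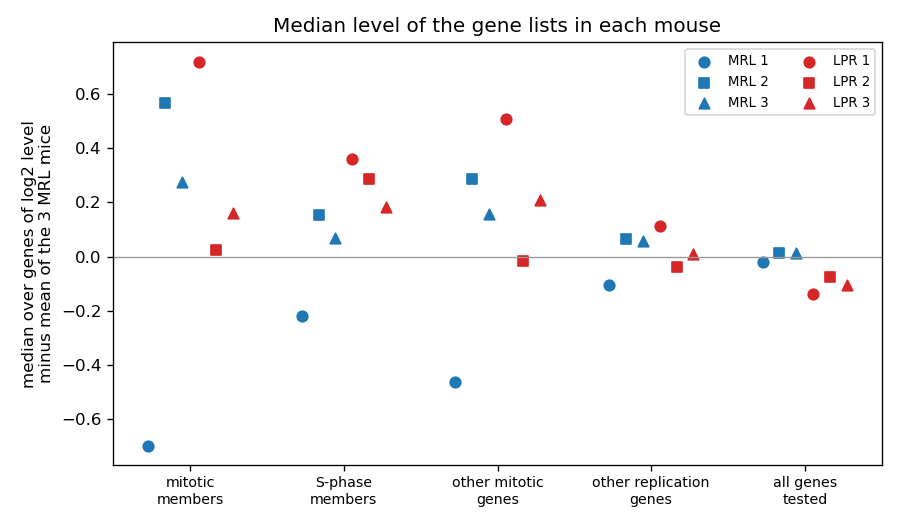
Median over the genes of a list of the log2 level minus the mean of the 3 MRL mice (y axis), 1 symbol per mouse, for the mitotic and S-phase genes, 69 other mitotic genes, 56 other replication genes and all genes tested. MRL 1 lies lowest and LPR 1 highest in the mitotic lists, and only the S-phase genes have all LPR mice above all MRL mice.

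Without MRL 1, the median change was 0.04 for the mitotic genes, with 12 above and 10 below 0, and 0.07 for the S-phase genes, with 9 above and 5 below 0. The calls that remained were Ccne1 and Bub1b as higher and Kif23 as lower. Position on the slide was tied to these mice. The first row of the slide held the 3 MRL mice and LPR 1, and the second row held LPR 2 and 3. Within the first row the median change was 0.72 for mitotic and 0.36 for S-phase genes. Within the first column (MRL 1 and LPR 2) it was 0.82 and 0.50, and within the second column (MRL 2 and LPR 3) it was -0.21 and 0.01. The second row held no MRL mouse. With the slide row as a block, a change is therefore LPR 1 minus the mean of the 3 MRL mice, and its calls are not given. The column block compares MRL 1 and 2 with LPR 2 and 3, because MRL 3 and LPR 1 were alone in their columns. With the column as a block, Bub1b and Ccne1 were higher and none of the 38 genes was lower. Slide position and the mice that held it cannot be told apart.

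The erythroid markers, a list for red cell precursors and residual blood, ran the other way from the mitotic genes in MRL 1. MRL 1 was the highest MRL mouse in 9 of 10 of these genes and in 8249 of 25799 genes of the array. Its median difference from the other MRL mice was 1.16. LPR 2, the lowest LPR mouse in 17 of 22 mitotic genes, was lowest in 1 and highest in 2 of the 10 genes. The changes fell into separate sets. Hba-a1, Hbb-bt, Hbb-b1, Alas2 and Ahsp had 1.32 to 3.69, and Slc4a1, Ermap, Tfrc, Klf1 and Epb42 had -0.50 to -0.07. The median of 0.62, of the same sign as that of the mitotic genes, lies between these sets. The summed linear level of the list was 56.8 to 414 in MRL and 314 to 649 in LPR mice, and 0 of the 10 genes passed. The part of blood in the result was not tested.

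Other cell cycle genes were read from 5 lists that share no gene with the 38. Over all lists, 11 genes were higher and 5 lower, beside the 7.12% and 5.47% of all genes. Of 69 other mitotic genes 2 were higher and 3 lower, with a median change of 0.18. MRL 1 was the lowest MRL mouse in 61 of these 69. The largest rise that passed was that of Espl1, separase, which cuts cohesin at anaphase. Its levels were -4.12, -3.09 and -3.26 in MRL mice and -2.29, -2.39 and -2.61 in LPR mice, with no overlap (change 1.06, standard error 0.27, adjusted p = 0.0470 in limma). Incenp, a scaffold of the chromosomal passenger complex, was also higher, by 0.71. The largest fall was that of Ect2, the exchange factor that sets the cleavage furrow, which had -0.85, -0.74 and -0.71 in MRL mice and -1.39, -1.78 and -1.67 in LPR mice. The groups lay apart (change -0.84, standard error 0.13, adjusted p = 0.00803). Ect2 and Kif23 were thus both lower by their brightest probes, and for Kif23 this was 1 of 3 tested probes. Racgap1 and Prc1 of the same list had changes of 0.51 and 0.33 that did not pass. A pattern over the genes of cytokinesis was not tested. Bora, an activator of Plk1, was also lower, with a change of -0.69.

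Of 56 other replication and S-phase genes 3 were higher and 1 lower, with a median change of 0.04. Exo1, an exonuclease of mismatch repair and resection, had -5.89, -5.81 and -5.79 in MRL mice and -3.98, -4.86 and -4.43 in LPR mice. No LPR mouse reached down to the MRL range (change 1.41, standard error 0.22, adjusted p = 0.00773 in limma). Exo1 was above background in 2 MRL and 3 LPR mice. Its MRL levels lay near the dimmest detected signals of those arrays (-5.88, -6.01 and -5.97), which limits what their spread and the change can show. Asf1b, a histone chaperone of the fork, and Uhrf1, which carries DNA methylation through replication, were higher by 1.02 and 1.01. Blm, a helicase that resolves recombination intermediates, had -0.18, -0.12 and -0.23 in MRL mice and -1.30, -2.03 and -1.59 in LPR mice. This was the largest fall among the listed cell cycle genes that passed (change -1.47, standard error 0.19, adjusted p = 0.00331).

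In the list of E2F, Rb and mitotic transcription factors, 2 of 22 genes were higher and 0 lower. E2f2, an activator of S-phase genes, had -1.02, -1.12 and -1.02 in MRL mice and 0.29, 0.41 and 0.48 in LPR mice. MRL 1 did not stand apart here, and the change was 1.45 (standard error 0.10, adjusted p = 0.000220 in limma). Lin52, a subunit of the DREAM and MuvB complexes, had 0.69, 0.82 and 0.81 in MRL mice and 1.25, 2.20 and 2.17 in LPR mice, with LPR 1 nearest to the MRL mice (change 1.10, standard error 0.26, adjusted p = 0.0368).

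Of 12 G1 cyclins and kinases 1 was higher and 0 lower. Ccnd2, a cyclin D abundant in lymphocytes, had 1.59, 1.77 and 1.62 in MRL mice and 2.63, 3.32 and 2.83 in LPR mice, without overlap (change 1.27, standard error 0.18, adjusted p = 0.00599 in limma).

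Of 18 CDK inhibitors and brakes 3 were higher and 1 lower. Cdkn2a, the locus of p16Ink4a and p19Arf, which restrain Cdk4 and Mdm2, showed the largest change of any listed cell cycle gene. It had -5.54, -4.24 and -5.16 in MRL mice and -0.85, -1.14 and -1.06 in LPR mice, a gap far beyond the spread of either group. The change was 3.97 (standard error 0.32, adjusted p = 0.000356 in limma), or 15.6-fold. Pkmyt1, a kinase that holds Cdk1 inactive, had -2.51, -1.73 and -2.26 in MRL mice and -0.99, -1.32 and -1.33 in LPR mice (change 0.95, standard error 0.21, adjusted p = 0.0324). Gadd45b, a stress-induced gene, had -0.68, -0.66 and -0.62 in MRL mice and -0.08, 0.16 and -0.26 in LPR mice (change 0.59, standard error 0.13, adjusted p = 0.0315). Neither gene had overlapping groups. Rrm2b, the p53-induced subunit of ribonucleotide reductase, had -1.97, -1.85 and -2.07 in MRL mice and -2.36, -2.31 and -2.48 in LPR mice, also without overlap, and only just passed (change -0.42, standard error 0.11, adjusted p = 0.0500).

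The calls named from these lists were not equally stable over the 22 alternatives. Cdkn2a, E2f2 and Blm passed in all of them, Ect2 lost its call in 1, and Ccnd2 and Exo1 in 2. Bora lost it in 6, Asf1b in 9, Lin52 and Gadd45b in 10, and Espl1, Incenp, Uhrf1 and Pkmyt1 in 11. Rrm2b lost it in 16. The sizes were less stable than the calls for some genes. The change ran from 2.32 to 4.34 for Cdkn2a, from -1.66 to -0.55 for Blm and from 1.28 to 1.52 for E2f2. For Exo1, which was read under 21 of the alternatives, it ran from 0.34 to 1.86.

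**Figure D4:**
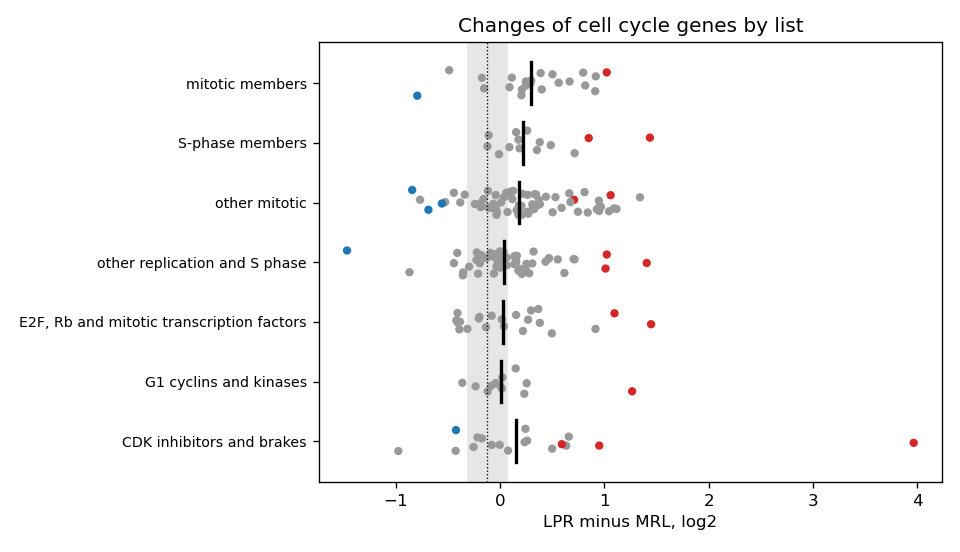
Log2 change (LPR minus MRL, x axis) of each gene in the 7 lists (y axis), 1 point per gene; red is higher, blue is lower at an adjusted p under 0.05 and grey did not pass. Black bars are list medians, the dotted line and the grey band are the median and the quartiles of all genes; the red point at 3.97 is Cdkn2a.

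Markers of cell types were read beside the 7.12% higher and 5.47% lower of all genes tested. T cell markers were higher for 7 of 8 genes, and their summed linear level was 2.91 to 3.39 in MRL and 14.6 to 17.0 in LPR mice. Plasma cell markers were higher for 8 of 8 (2.94 to 5.06 against 50.8 to 102) and macrophage markers for 7 of 8 (16.1 to 19.5 against 54.4 to 61.5). B cell markers were higher for 4 of 7 and lower for 1 of 7 (1.56 to 1.68 against 4.37 to 5.63), and germinal center B cell markers were higher for 4 of 7, with overlapping sums (3.13 to 4.76 against 3.97 to 6.27). In each of the plasma cell, B cell and germinal center B cell lists, 1 tested gene was above background in no MRL mouse. That gene entered the test through LPR mice alone, so that the filter favoured a rise. Neutrophil markers were higher for 3 of 8 and those of mesangium and fibroblasts for 5 of 8. Proximal tubule markers were lower for 3 of 8 (623 to 669 against 474 to 528) and those of the distal segments for 2 of 8 (373 to 393 against 299 to 314). Podocyte markers passed for 0 of 6, and injured tubule markers were higher for 3 of 9. The part of these cells in the changes of the cell cycle genes was not tested.

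The 2 classes differed in their promoters. The genes were chosen by name and not by promoter sequence. The classes still follow the timing in the cycle that these elements serve, so that the difference is not independent of the choice. Windows of 300 bases around the start of transcription were taken from RefSeq on build GRCm38.p6, and 31 of the 38 genes were matched, with 32 windows. Kif20a, Gins2, Ccne2, Aurkb, Tpx2, Mcm4 and Ccna2 had no entry. The letters searched, on both strands, were CCAAT for the CCAAT box, TTTGAA for the CHR, and TTTCCCGC, TTTCGCGC, TTTGCCGC and TTTGGCGC for E2F sites. These can overlap one another on opposite strands, as in Mcm6. The CHR letters stood in 14 of 19 mitotic windows (73.7%) and in 1 of 13 S-phase windows (7.69%), compared with 17.9% of all 32851 windows. The E2F letters stood in 1 of 19 mitotic windows (5.26%, in Cdk1), in 6 of 13 S-phase windows (46.2%) and in 2.26% of all. CCAAT stood in 84.2% of the mitotic, 61.5% of the S-phase and 37.4% of all windows. A CCAAT and a CHR together stood in 68.4%, 7.69% and 6.95%. A match is a string of letters and not a measured site.

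The 250 bases before the start of 7 genes are printed 5′ to 3′ along the gene, with matches in capitals. They are the 4 genes that were called, Mcm6 as a window with E2F letters before the start, and Ccnb2 and Mki67 as mitotic genes with a wide spread in the MRL mice. The S-phase genes are Ccne1 at chr7:38107491-38107740 (- strand), Mcm3 at chr1:20820313-20820562 (- strand) and Mcm6 at chr1:128359706-128359955 (- strand).
Ccne1: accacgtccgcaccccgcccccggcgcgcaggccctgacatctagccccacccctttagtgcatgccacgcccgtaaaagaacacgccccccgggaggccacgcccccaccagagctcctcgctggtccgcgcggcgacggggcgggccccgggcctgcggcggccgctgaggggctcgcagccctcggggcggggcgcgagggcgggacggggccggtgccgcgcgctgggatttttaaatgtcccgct
Mcm3: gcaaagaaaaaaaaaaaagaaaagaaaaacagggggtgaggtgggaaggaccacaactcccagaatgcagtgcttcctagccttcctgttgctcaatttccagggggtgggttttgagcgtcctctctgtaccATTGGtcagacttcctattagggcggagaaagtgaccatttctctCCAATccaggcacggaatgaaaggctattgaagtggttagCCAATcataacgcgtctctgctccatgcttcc
Mcm6: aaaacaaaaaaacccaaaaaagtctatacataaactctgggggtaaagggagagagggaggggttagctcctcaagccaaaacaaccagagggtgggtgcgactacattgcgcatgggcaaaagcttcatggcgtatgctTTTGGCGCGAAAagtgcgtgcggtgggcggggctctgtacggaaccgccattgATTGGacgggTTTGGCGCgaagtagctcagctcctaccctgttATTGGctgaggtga

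The mitotic genes are Bub1b at chr2:118597961-118598210 (+ strand), Kif23 at chr9:61946800-61947049 (- strand), Ccnb2 at chr9:70421555-70421804 (- strand) and Mki67 at chr7:135716380-135716629 (- strand).
Bub1b: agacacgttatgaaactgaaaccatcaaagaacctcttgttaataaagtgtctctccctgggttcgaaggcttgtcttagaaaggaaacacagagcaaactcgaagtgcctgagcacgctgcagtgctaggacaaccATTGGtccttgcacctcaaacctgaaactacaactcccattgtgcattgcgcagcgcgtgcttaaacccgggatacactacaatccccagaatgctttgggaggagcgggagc
Kif23: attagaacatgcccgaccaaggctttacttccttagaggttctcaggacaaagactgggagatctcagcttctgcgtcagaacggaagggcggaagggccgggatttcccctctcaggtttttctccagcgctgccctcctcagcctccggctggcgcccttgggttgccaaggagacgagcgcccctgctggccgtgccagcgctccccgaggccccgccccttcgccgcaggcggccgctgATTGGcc
Ccnb2: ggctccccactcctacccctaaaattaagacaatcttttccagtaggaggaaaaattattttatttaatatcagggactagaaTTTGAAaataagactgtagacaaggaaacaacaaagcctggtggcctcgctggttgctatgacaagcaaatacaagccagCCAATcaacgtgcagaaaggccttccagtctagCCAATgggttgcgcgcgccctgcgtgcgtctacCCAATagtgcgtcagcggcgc
Mki67: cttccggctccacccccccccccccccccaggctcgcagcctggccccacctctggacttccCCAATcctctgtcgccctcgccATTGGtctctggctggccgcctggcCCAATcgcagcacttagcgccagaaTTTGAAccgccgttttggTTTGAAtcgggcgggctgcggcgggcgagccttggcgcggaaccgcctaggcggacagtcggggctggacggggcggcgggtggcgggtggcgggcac

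Ccne1 held none of the letters searched. Mcm3 held 3 CCAAT boxes before the start, and its 2 E2F matches lay after it, at bases 20 and 39. Mcm6 held 3 E2F matches, of which 2 overlap at bases -110 and -106 and the third is at -47. Mki67 held 3 CCAAT boxes and CHR letters at -116 and -98. Bub1b and Kif23 held 1 CCAAT box each, and their CHR letters lay after the start, at bases 41 and 3. Bub1b and Kif23 thus held the same kinds of letters, and a link between letters and changes was not tested. Positions are those of the first base of the match, counted from the start of transcription.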

How the data were processed

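TA was performed on 6 kidneys with 1-colour Agilent SurePrint G3 8x60K arrays on 1 slide (60-base probes placed on mm9). The authors deposited intensities from Feature Extraction 12.0.3.1, background-subtracted and not normalized between arrays. The authors also deposited a ratio of each intensity to the 75th percentile of the array, used as an alternative. The deposited flags (well above background, saturated, outlier) were used as filters. The paper names Trizol and the labels name RNeasy for the extraction.

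After removal of control and outlier spots, values were log2-transformed, centred on each array's 75th percentile and averaged by probe. The 39924 probes (of 56605) that at least 3 arrays detected above background were tested in limma 3.58.1 (R 4.3.3), adjusted by Benjamini-Hochberg. With 3 mice per group the smallest p of an exact test is 0.1. The number of arrays limits the precision. Coordinates of probes are those of the array annotation.

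The members and lists were chosen with earlier results of these data known. Values per mouse are given for the 5 largest and 3 smallest changes of each class, for members that fell or whose probes differed in call, and for the largest rise and fall of the pathway lists, with every gene that passed in the 3 shorter lists. Ccnb2, Cdk1 and the second probes were added after their values were seen. A gene that the rule would name is not reported here and remains in the counts. The labels number the mice 1 to 3 in both groups, and same-numbered mice did not deviate together in every pair (correlations 0.12, 0.02 and 0.01), so that the numbers were not taken as pairs.

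There were 22 alternatives. They covered background correction, scaling, filters, probe averaging, blocks for slide position or replicate number, the methods' test and leaving out each mouse. The methods' test is Student's t test, run here on all tested probes and adjusted by Benjamini-Hochberg. The paper ran that test on genes selected by fold change and names no adjustment, so that these calls are not those of the paper. The slide row as a block was chosen after seeing the data, and it leaves LPR 1 alone against the MRL mice. On simulated data with 39924 probes limma recovered 51 of 100 probes changed by a log2 of 1 and 88 of 100 changed by 2, with 12 false calls. Only these 200 probes were changed and errors were drawn independently, so that the shares are not those of the real comparison. Figures were drawn with matplotlib 3.10.9.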

Additional observations from a re-analysis of the deposited data

How the results depend on the processing

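Over 22 alternatives, Ccne1 and Bub1b each lost their call in 2, Kif23 in 2 and Mcm3 in 11, and each of these 4 kept its direction. Losses under the slide row as a block are in these counts. Its numbers of calls are not given, because it leaves LPR 1 alone against the 3 MRL mice. The number of genes higher among the 38 was 3. It fell to 1 with the methods' test on log2 values, adjusted over all tested probes. The number lower was 1 and fell to 0 with probes averaged by gene and with the slide column as a block. Mitotic genes higher numbered 1 and came to 0 under normexp. S-phase genes higher numbered 2 and came to 4 under normexp. They came to 1 without a filter on dim probes, with the column block and with the methods' test on linear values. With the methods' test on log2 values they came to 0. Leaving out each mouse gave 1 to 2. The median change of S-phase genes was 0.36 under the row block and 0.073 to 0.32 when mice were left out, and that of mitotic genes was 0.72 under the row block and 0.035 to 0.58 when mice were left out.

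The 5 other lists had 11 genes higher. This number became 20 with an intensity trend, 19 under normexp and 4 without a filter. It became 2 and 3 with the methods' test on linear and log2 values, and 4 to 12 when mice were left out. The 5 genes lower in these lists became 8 with the trend and 11 under normexp. They became 3 with the median shift, quantile normalization or no filter, and 2 to 3 when mice were left out.

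With the replicate number as a block, which the labels do not tie to a shared source, 2 of the 38 genes were higher (Bub1b and Ccne1), 1 was lower (Kif23), 1 S-phase gene was higher and 5 genes of the other lists were higher. MRL 1 correlated best with LPR 1, MRL 2 with LPR 3 and MRL 3 with LPR 2.

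Among the genes named, directions turned only for those that had not passed. Under normexp Bub1 came to -0.00083 and Kif4 to -0.072. With the mean of probes Cdk1 came to 0.31. Under the column block Kif4 was -0.18, Mcm4 -0.045, Mcm7 0.014 and Tyms 0.0054. Under the row block, which leaves LPR 1 alone against the MRL mice, Cenpf was 0.48, Kif20a 0.55 and Rrm2 0.27. Mcm7 was 0.020 with the percentile over detected probes, 0.0030 with the median shift and 0.027 with quantile normalization. Leaving out mice gave -0.067 to 0.50 for Aurka, -0.25 to 0.59 for Ccna2, -0.29 to 0.51 for Ccnb1, -0.44 to 0.40 for Ccnb2, -0.37 to 0.56 for Cdc20, -0.018 to 0.80 for Cenpe, -1.01 to 0.15 for Cenpf, -0.018 to 0.31 for Gins2, -0.66 to 0.11 for Kif20a, -0.15 to 0.32 for Kif4, -0.078 to 0.24 for Mcm4, -0.065 to 0.050 for Mcm7, -0.31 to 0.014 for Rrm2 and -0.084 to 0.56 for Tk1. The cause of these turns was not tested. Of all calls, 56.6% were higher, compared with 41.8% under normexp and 70.2% without a filter. The share was 70.4% with the replicate block and 70.7% with the column block. It was 56.0% to 75.8% when mice were left out. Under the other alternatives except the row block it was 48.2% to 63.3%. Dim probes such as those of Bub1b and Kif2c lie close to background, and only 3 mice per group were measured.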
